A study of Homo sapiens with 4 samples.

Results

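CHKA and 7 further genes of phosphatidylcholine and phosphatidylethanolamine synthesis were followed in ovarian tumour-initiating cells over 6 h of niclosamide. The genes were CHKA, CHKB, ETNK1, PCYT1A, PCYT2, CHPT1, CEPT1 and PEMT, taken as a list of enzymes and represented by 23 of the 48803 probes and by 8 of the 18665 genes named on the array. CHKA had been picked out for its difference between the 6 h and 2 h arrays, so its values are a description with no test, and the other 7 genes were added because they act in the same pathways. Of the 23 probes, 15 were detected on all 4 arrays and 8 on none, where detected means a detection p under 0.01 against the negative controls of the array. This left 7 of the 8 genes with at least 1 detected probe, and 6 of them with several. The exception was PCYT1A.

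Cells make phosphatidylcholine and phosphatidylethanolamine, the main phospholipids of most membranes, largely by the Kennedy pathway. Choline or ethanolamine is phosphorylated by a kinase (CHKA, CHKB, ETNK1), activated to its CDP form by a cytidylyl transferase (PCYT1A, PCYT2), and joined to diacylglycerol by a phosphotransferase (CHPT1, CEPT1). PEMT offers another route by methylating phosphatidylethanolamine to phosphatidylcholine, and is best known from liver. CHKA and phosphocholine, its product, are often raised in tumours, ovarian carcinoma among them.

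The cells, Cp70sps, derive from the ovarian cancer line Cp70, out of which cells that exclude a Hoechst dye were sorted, and all groups grew as a low-attachment culture in serum-free DMEM/F12 with EGF at 20 ng/ml, bFGF at 10 ng/ml, insulin and BSA at 0.4%. The 4 groups had 0, 2, 4 or 6 h of 3 µM niclosamide, an anthelmintic known to uncouple mitochondrial respiration, with 1 array per time and 0 h as the only untreated group, so exposure to the drug and time in culture cannot be told apart. Without replicates a fold has neither an error nor a p-value here, and precision is limited by having 1 array a time. In this bulk RNA, fewer cells of a type and less RNA per cell cannot be told apart.

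Between 13797 and 14461 probes, or 28.3% to 29.6%, were detected per array, and the lowest detected intensity lay between 107 and 121 units. Of the markers checked against the label, the epithelial genes EPCAM, KRT18 and KRT19 were detected on all 4 arrays, KRT8 on 1, and CDH1 and CLDN4 on none. The ovarian carcinoma markers PAX8, MUC16, WT1 and ESR1 were not detected on any array. The fibroblast markers COL1A2, DCN and LUM were detected on all 4 arrays and COL1A1 on none, while PTPRC, CD3E and CD14 of leukocytes and PECAM1, VWF and CDH5 of endothelium were not detected. None of the detected markers was tested for a part in the results.

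CHKA, the choline kinase that commits choline to the pathway, stood higher at 6 h than on any earlier array on both of its detected probes. Its brightest probe, ILMN_1658504, gave 783 intensity units on the 0 h array, 607 on the 2 h array, 1152 on the 4 h array and 1439.8 on the 6 h array. The other detected probe, ILMN_1691151, read 194, 246, 306 and 523 units in the same order. Both probes were thus highest at 6 h and next highest at 4 h, while the lowest array was 2 h for the brightest probe and 0 h for the other. After background correction and quantile normalization between arrays, the log2 levels were 9.61, 9.18, 10.04 and 10.42 on the brightest probe and 7.34, 7.70, 7.98 and 8.87 on the other. The remaining 3 of the 5 CHKA probes stayed below detection on all arrays and give no level. All 4 probes other than the brightest are listed for another CHKA transcript than it.

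**Figure D1:**
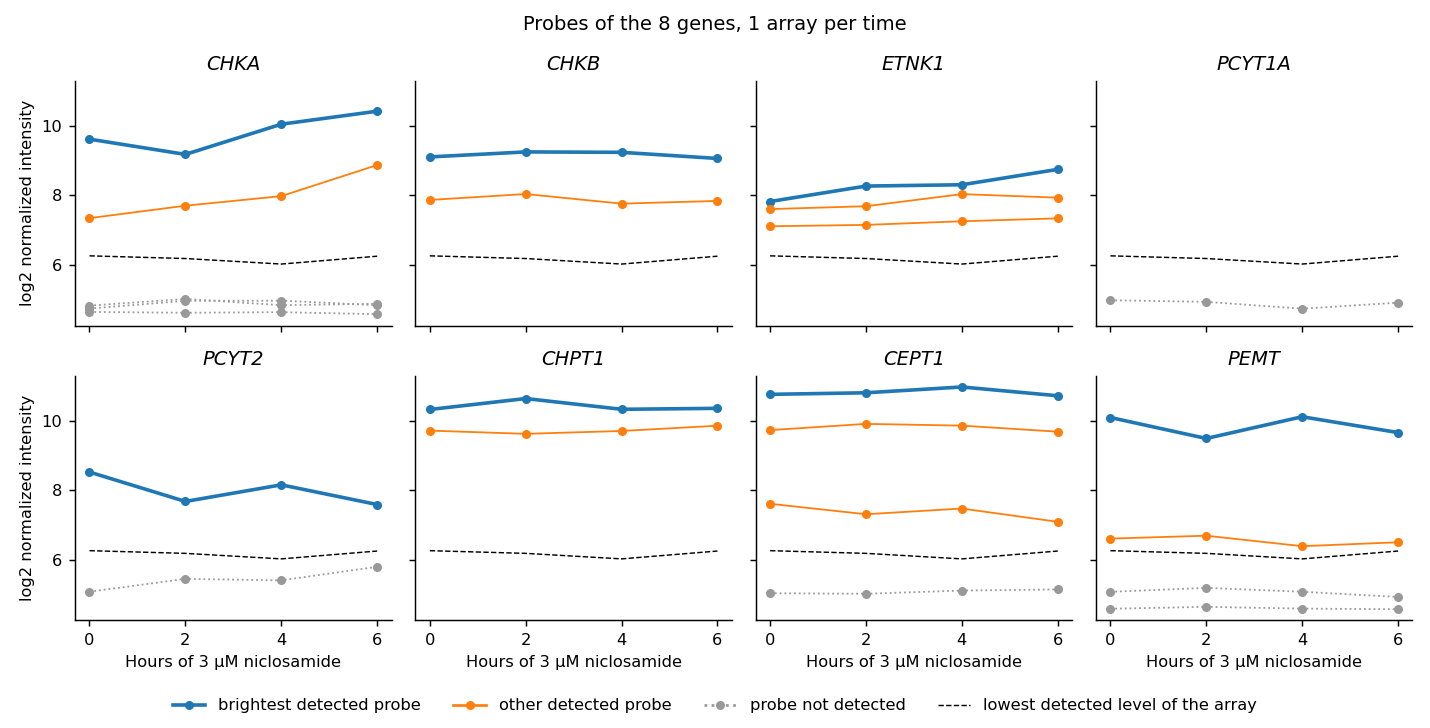
Log2 normalized intensity of every probe of the 8 genes (vertical axis) against hours of 3 µM niclosamide (horizontal axis), 1 array per time, with the lowest detected level of each array dashed. Both detected CHKA probes stand highest at 6 h, the 3 ETNK1 probes are lowest at 0 h, PCYT2 and PEMT on their brightest probe are lower at 2 and 6 h than at 0 and 4 h, and the single PCYT1A probe lies below detection throughout.

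Against 2 h, CHKA at 6 h was 2.36-fold higher on the brightest probe and 2.25-fold on the other. These are the values it was chosen for. Against 0 h, the 6 h level was 1.74-fold higher on the brightest probe and 2.88-fold on the other. At 4 h the corresponding folds over 0 h were 1.35 and 1.55. At 2 h the probes disagreed in sign, with log2 differences from 0 h of -0.44 and 0.36. The step from 2 to 4 h was larger on the brightest probe, at 0.87, than on the other, at 0.28, and for the step from 4 to 6 h the order was turned, at 0.37 and 0.89. The probes thus differed in which step was larger, while the log2 difference over the whole interval from 2 to 6 h was 1.24 and 1.17. In the deposited processed values of the authors, the brightest probe read 825, 619.8, 1096 and 1408 intensity units at 0, 2, 4 and 6 h, and the other 204, 249.6, 293 and 509.

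CHKB encodes the other choline kinase, which also accepts ethanolamine. Its brightest probe read 557, 636, 672 and 591 units at 0, 2, 4 and 6 h, and its other probe 259, 299, 268 and 279.9. The log2 levels of the brightest probe spanned 9.06 to 9.25 and those of the other 7.76 to 8.04. At 6 h the log2 differences from 0 h were -0.04 and -0.03, well inside the robust spread of 0.42 that all genes showed between those arrays, and from 2 h they were -0.19 and -0.20. RefSeq also lists a readthrough gene, CHKB-CPT1B, and whether the CHKB probes read it was not tested. CHKA and CHKB encode enzymes of the same reaction. The difference from 2 h to 6 h seen on both CHKA probes was not seen on either CHKB probe. CHKA was chosen on this contrast and CHKB was not, so the comparison is a description only.

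ETNK1, which encodes ethanolamine kinase and starts the phosphatidylethanolamine branch, had 3 detected probes, all of them lowest at 0 h. The brightest, ILMN_2316778, read 253, 342, 374 and 483 units at 0, 2, 4 and 6 h. The second, ILMN_1696028, read 223, 244, 317 and 296 units, and the third, ILMN_2244547, read 172, 179.5, 201 and 210.1 units. The highest array was 6 h on the brightest and the third probe and 4 h on the second. At 6 h the brightest probe was 1.90-fold above 0 h, ranking number 226 from the top of 9044 genes, and the other probes were 1.26-fold and 1.17-fold above. Against 2 h, the log2 differences at 6 h were 0.48, 0.25 and 0.19. Only the brightest ETNK1 probe passed a fold of 1.5 at 6 h against 0 h, and the mean difference of the 3 probes, at 0.49, did not.

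The cytidylyl transferases were less well covered. PCYT1A, whose enzyme is generally the rate-limiting one for phosphatidylcholine, has a single probe, which read 69.9, 64.5, 56.5 and 67.2 units at 0, 2, 4 and 6 h with detection p values from 0.0962 to 0.344. Each value lay under the lowest detected intensity of its array, so no level and no difference can be given. PCYT2, the cytidylyl transferase of the ethanolamine branch, read 387, 242, 342 and 241 units on its brightest probe, ILMN_1652846. The 2 and 6 h arrays were low and the 0 and 4 h arrays high. The 2 h level was 1.80-fold and the 6 h level 1.91-fold lower than the level at 0 h, and the 4 h level 1.29-fold lower. The 6 h minus 2 h difference was -0.09. The other PCYT2 probe read 73.3, 82.5, 82.5 and 99.7 units. It was not detected at a p under 0.01 on any array, so no second detected probe checks these values. Its direction was opposite, with log2 differences from 0 h of 0.37, 0.33 and 0.71 at 2, 4 and 6 h. Its detection p was 0.069 at 0 h and 0.026, 0.032 and 0.017 at 2, 4 and 6 h.

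The promoters of ETNK1 and PCYT2 are shown because these were the members, besides CHKA, past a fold of 1.5 at 6 h against 0 h, in opposite directions. Promoters of 300 bases, 250 before to 50 after the start, were matched in RefSeq (GRCh38.p14) for 7 of the 8 genes, all but CHKA. The ETNK1 promoter is at chr12:22624921-22625220 on the plus strand, and the PCYT2 promoter, the more upstream of its listed starts, is at chr17:81911350-81911649 on the minus strand. Both are given 5′ to 3′ on the strand of the gene, with CCAAT boxes on either strand (CCAAT or ATTGG) in capitals.
ETNK1: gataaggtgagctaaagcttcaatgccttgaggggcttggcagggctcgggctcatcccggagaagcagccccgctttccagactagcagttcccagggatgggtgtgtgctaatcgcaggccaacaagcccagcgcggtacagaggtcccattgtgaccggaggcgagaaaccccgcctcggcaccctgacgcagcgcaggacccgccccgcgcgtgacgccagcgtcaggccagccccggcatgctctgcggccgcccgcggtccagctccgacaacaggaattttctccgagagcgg
PCYT2: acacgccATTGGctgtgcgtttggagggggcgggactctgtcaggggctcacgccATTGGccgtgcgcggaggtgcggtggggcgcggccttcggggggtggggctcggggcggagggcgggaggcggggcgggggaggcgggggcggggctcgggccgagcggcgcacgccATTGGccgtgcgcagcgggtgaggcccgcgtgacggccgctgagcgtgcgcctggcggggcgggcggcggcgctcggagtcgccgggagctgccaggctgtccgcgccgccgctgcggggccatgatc
The PCYT2 window shown held 3 CCAAT boxes, all read on the opposite strand, while the window of its other listed start, chr17:81911126-81911425, held 0. The ETNK1 window held 0, where 34.6% of 35116 RefSeq promoters of this length hold at least 1. The CHKB window also held 3. The C/EBP-ATF response element (TGATGNAAN), found in 3.61% of all promoters, was present in that of PCYT1A alone among the members matched, and the hypoxia response element core (ACGTG), found in 21.4%, in 1 of the windows of CEPT1 and 1 of those of PEMT. The cyclic AMP response element (TGACGTCA), in 1.85% of all promoters, and the ER stress element (CCAAT, then 9 bases of any kind, then CCACG), which contains a CCAAT box and was in 0.0769%, were found in none of the 7 genes. All motifs were searched on both strands. These matches describe letters in a window, and no difference between arrays was related to them.

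The final enzymes of the pathway had no detected probe at or past a fold of 1.5 in the 4 comparisons made. CHPT1, the cholinephosphotransferase, read 1254, 1576, 1391 and 1383 units on its brightest probe at 0, 2, 4 and 6 h, and 833, 804, 921 and 989 on the other. The brightest probe was highest at 2 h and the other at 6 h. At 6 h they stood 0.03 and 0.14 above 0 h on the log2 scale, and against 2 h they differed in sign, at -0.28 and 0.23. CEPT1, which serves both the choline and the ethanolamine branch, read 1727, 1764, 2123 and 1736 units on its brightest probe. Its log2 differences from 0 h at 6 h were -0.04 on that probe, -0.04 on the second and -0.52 on the dimmest detected probe. All 3 detected CEPT1 probes were lower at 6 h than at 2 h, by -0.09, -0.22 and -0.22, each under a fold of 1.5.

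PEMT read 1075, 739, 1203 and 865 units on its brightest probe at 0, 2, 4 and 6 h. As for PCYT2, the 2 and 6 h arrays were lower than the 0 and 4 h arrays. The log2 differences from 0 h were -0.60, 0.02 and -0.43 at 2, 4 and 6 h. The other detected PEMT probe, close to the detection limit at 127 to 142 units, gave 0.08, -0.22 and -0.11. At 2 h the brightest PEMT probe was 1.52-fold lower than at 0 h, which fell short of 1.5-fold under 3 of the other settings tried, and the mean of the detected probes stood at -0.26. The detected PEMT probes had the same sign at 6 h against 0 h and opposite signs at 2 and 4 h.

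**Figure D2:**
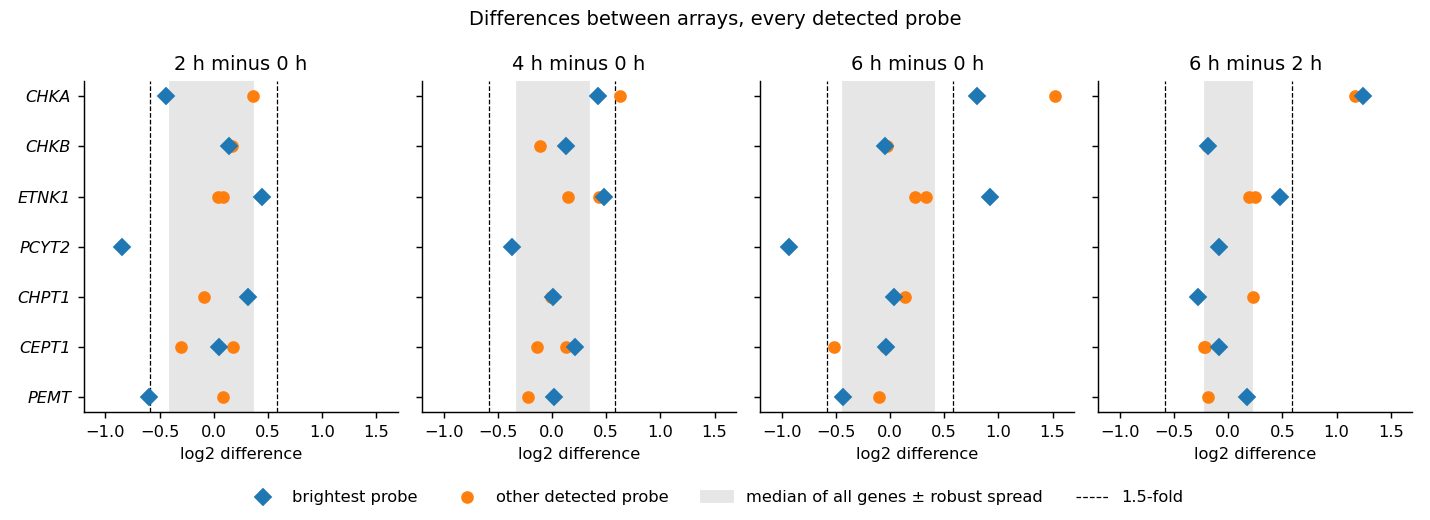
Log2 differences between arrays (horizontal axis) for each detected probe of 7 genes (rows), with the brightest probe as a diamond, the other detected probes as circles, the median of all genes ± its robust spread in grey and a fold of 1.5 dashed. For 6 h minus 2 h both CHKA probes stand at 1.24 and 1.17 while all other probes lie within a fold of 1.5, and for 6 h minus 0 h CHKA and the brightest ETNK1 probe lie to the right and PCYT2 to the left.

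By the brightest probe, 0 of the 7 detected members were at least 1.5-fold higher at 2 h than at 0 h and 2, PCYT2 and PEMT, were at least 1.5-fold lower. Over all 9120 genes detected on both arrays these shares were 7.86% higher and 7.99% lower. At 4 h 0 members passed in either direction, against 4.25% and 4.58% of all genes. At 6 h 2 were higher, CHKA and ETNK1, and 1 was lower, PCYT2, against 9.44% and 9.8% of all genes. For 6 h minus 2 h 1 member was higher, CHKA, by the contrast it was chosen on, and 0 were lower, against 1.52% and 1.34% of 9202 genes. The medians of the 7 were 0.04, 0.13, -0.04 and -0.09 for these comparisons, beside -0.02, 0.01, -0.02 and 0.00 over all genes. The first 3 comparisons share the 0 h array.

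The split of all genes depended on the scaling between arrays. When arrays were instead scaled to a common median, there were 979 genes higher and 551 lower at 2 h, in place of 717 and 729, 947 and 197 at 4 h, in place of 392 and 422, and 1269 and 593 at 6 h, in place of 854 and 886. For 6 h minus 2 h there were 166 and 97, in place of 140 and 123. The median over all genes at 4 h was then 0.15. CHKA and ETNK1 then passed the fold at 4 h, at 0.60 and 0.68 above 0 h, of which 0.45 and 0.53 remained relative to the median of all genes.

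Agreement among probes of a gene was also set beside that of the array as a whole. Only probes detected on all 4 arrays were counted, which for the members are all their detected probes. At 6 h against 0 h, the detected probes had the same sign in 6 of the 6 members with several, and in 58.1% of 2021 such genes. Under median scaling 4 of 6 members had this, since the probes of CEPT1 and PEMT then disagreed, and 59.1% of genes did. At 2 h against 0 h this held for 2 of 6 members, CHKB and ETNK1, and 49.8% of genes. At 4 h against 0 h it held for 2 of 6, CHKA and ETNK1, and 61.2% of genes, and under median scaling for 5 of 6, all but PEMT, and 66.1%. For 6 h minus 2 h it held for 4 of 6, CHKA, CHKB, ETNK1 and CEPT1, and 67.2%. Every detected probe was at least 1.5-fold higher at 6 h than at 2 h in 11 of the 2021 genes, 0.544%, and at 6 h than at 0 h in 43, 2.13%. CHKA was 1 of them in both comparisons, the first being the contrast it was chosen on and the second sharing the 6 h array with it.

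Genes on either side of the pathway were read from 9 lists of 72 genes, of which 48 were detected on at least 1 array. At 6 h against 0 h, 7 of 48 were at least 1.5-fold higher and 2 lower, or 14.6% and 4.17%, with a median of 0.05, against 9.44% and 9.8% of all genes with a median of -0.02. Against 2 h, 1 of 48, or 2.08%, was higher and 0 lower, with a median of -0.01, against 1.52% and 1.34% of all genes with a median of 0.00. Each list gene past the fold at 6 h on its brightest probe had 1 detected probe, so no further probe checks its values.

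Of the choline and ethanolamine transporters, 6 of 8 were measured, 0 were at least 1.5-fold higher and 2 lower at 6 h against 0 h. SLC44A1, a choline transporter of the plasma membrane, read 8959, 5676, 7408 and 5101 units at 0, 2, 4 and 6 h, with log2 differences from 0 h of -0.63, -0.28 and -0.86 at 2, 4 and 6 h. SLC44A2, a related transporter, stood at -0.94, -0.08 and -0.79. For 6 h minus 2 h they stood at -0.23 and 0.15, under a fold of 1.5. The other 4, SLC44A3, SLC44A4, FLVCR1 and FLVCR2, lay between -0.36 and 0.15 at 6 h.

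Among the other isoenzymes, ETNK2, a further ethanolamine kinase, was 1.52-fold above 0 h at 6 h, or 0.60 on the log2 scale, and fell short of the fold at 0.52 with the processed values of the authors and 0.53 with an offset of 50. SELENOI, the ethanolaminephosphotransferase, stood at 0.21 at 6 h. PCYT1B, the other choline cytidylyl transferase, was not detected. Of 3 genes of the phosphatidylserine route to phosphatidylethanolamine, PISD, the mitochondrial decarboxylase, was the 1 past the fold at 6 h, at 0.69, beside 0.31 for PTDSS1 and 0.07 for PTDSS2, which make phosphatidylserine. AGPAT1, which makes phosphatidate, was at 0.66 and GPAT4, which acylates glycerol 3-phosphate, at 0.55 among 9 measured genes of phosphatidate and diacylglycerol supply. GPAT4 was the single list gene past the fold against 2 h, at 0.71, a call lost at 0.50 with the processed values of the authors and at 0.52 with an offset of 50. It had intensities of 121, 114, 105 and 169 units at 0, 2, 4 and 6 h, the 4 h value being below detection. The lipins LPIN1 and LPIN2, which make the diacylglycerol used in the last step, stood at -0.15 and 0.02 at 6 h.

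Of the 6 measured lysophospholipid acyltransferases, MBOAT7, which puts arachidonate into phosphatidylinositol, was at 0.81 at 6 h and the others lay between -0.37 and 0.48. PLA2G15, a lysosomal phospholipase, and GDPD5, which frees choline from glycerophosphocholine, were at 0.80 and 0.70 among 9 measured genes of breakdown and choline release. CDIPT, the phosphatidylinositol synthase, was at 0.61 among 6 genes of other users, and at 0.51 and 0.52, short of the fold, with the processed values of the authors and an offset of 50. By the brightest probe, 0 of 5 measured genes of choline oxidation with the methyl donor cycle passed the fold at 6 h. They ranged from -0.39 to 0.50. CTP synthesis had 0 of 2 past it. Among the further detected probes of list genes, those past the fold at 6 h against 0 h were of MAT2B and SMPD1. MAT2B stood at 0.31 on its brightest probe and at 0.17 and -0.61 on the others, and SMPD1 at 0.24 and 0.79. Probes differed in sign for MAT2B, ALDH7A1, LPIN2 and PLPP1.

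**Figure D3:**
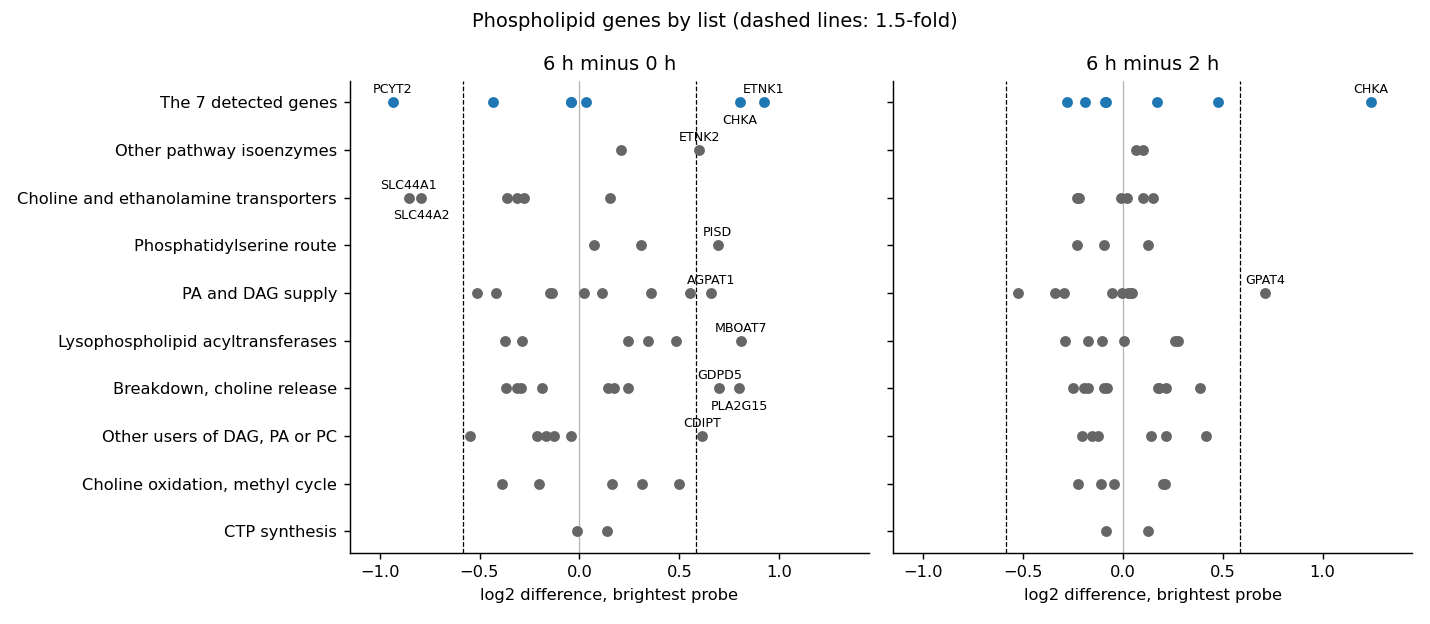
Log2 difference of the brightest probe (horizontal axis) for the 7 detected members (top row) and for the 9 lists of related genes (other rows), at 6 h minus 0 h on the left and 6 h minus 2 h on the right, with dashed lines at a fold of 1.5 and names on genes past it (PA, phosphatidate; DAG, diacylglycerol; PC, phosphatidylcholine). On the left 9 list genes lie past the fold, and on the right GPAT4 does, with CHKA further out.

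Many of these genes had the same shape over time. All 9 list genes past the fold at 6 h against 0 h were already on the same side at 2 h and stood nearer to 0 h at 4 h than at 2 or 6 h. The same held for 1165 of the 1734 genes past that fold among those detected on all 4 arrays, or 67.2%. Of the 3 members past the fold, PCYT2 showed this shape and CHKA and ETNK1 did not. Counted in this way, the shape of the list genes was thus also that of most genes past the fold. What sets the 0 and 4 h arrays apart from the 2 and 6 h arrays was not tested.

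The genes whose profile over the 4 arrays, less its own mean, was nearest to the brightest CHKA probe were ranked by root mean square distance in log2 units over 9770 other genes. FNIP1, which encodes a partner of folliculin, came first at 0.0967, followed by PPP1R15A, which encodes a regulatory subunit of the phosphatase of eIF2 alpha, at 0.111, HSPBAP1 at 0.115, TRIML2 at 0.116 and ZNF165 at 0.13. CEL, OVGP1, TUBE1, WDR20 and CEBPB completed the 10, at 0.134 to 0.163. All 10 were lower at 2 h than at 0 h and highest at 6 h, as largely follows from picking them by nearness to that probe. Their 6 h minus 2 h differences lay between 0.86 and 1.23 and their 6 h minus 0 h differences between 0.52 and 1.11. Of these genes 8 had 1 detected probe. A further TUBE1 probe read 0.75 for 6 h minus 2 h, and further WDR20 probes -0.05 and -0.08.

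The other detected CHKA probe lay 0.337 from the brightest, farther than any of these 10 genes, and the median over all genes was 0.494. Ranked against that other probe, the 10 genes stood between 36, for ZNF165, and 596, for HSPBAP1, of 9770. The order among the neighbours therefore depends on the probe. Of the other members, ETNK1 was nearest to CHKA at 0.359, rank 768, followed by PEMT at 0.475 and CEPT1 at 0.477. CHKB, CHPT1 and PCYT2 lay farther than the median, at 0.516, 0.568 and 0.643.

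**Figure D4:**
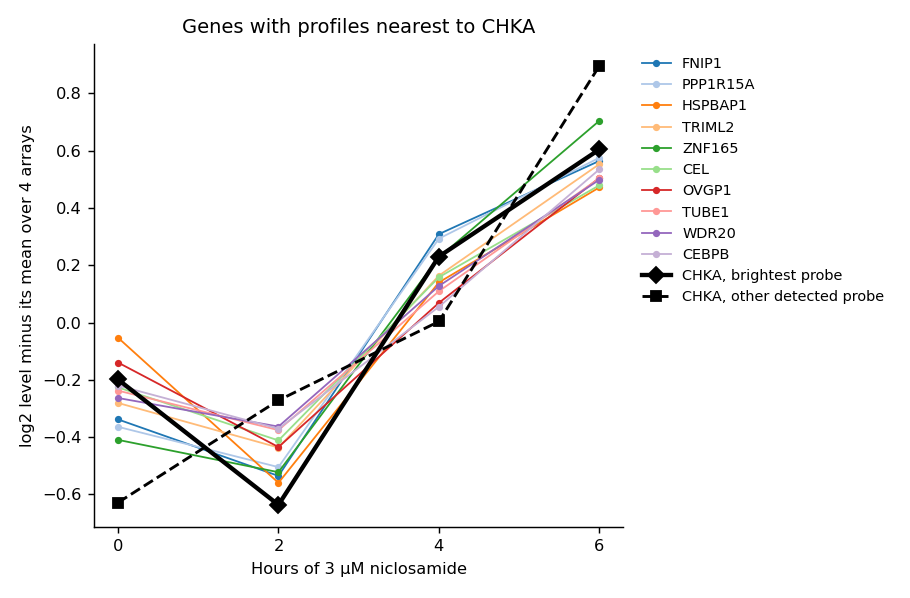
Log2 level less its own mean over the 4 arrays (vertical axis) against hours of 3 µM niclosamide (horizontal axis) for both detected CHKA probes (black) and the 10 genes nearest to the brightest. The 10 genes and the brightest CHKA probe are lowest at 2 h and highest at 6 h, and the other CHKA probe is lowest at 0 h.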

How the data were processed

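Total RNA was labelled with biotin and hybridized to Illumina bead arrays, 1 for each of 4 times, per the labels' protocols. The non-normalized intensity of each probe was deposited as read by BeadStudio, named in the submitters' processing notes, and the deposited detection p-value compares each probe with negative controls, per the file headers. Version, settings and build are not given in the sources used here. The processed intensity of the authors equals a linear quantile normalization of these values within 1.46%.

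Background and scaling were handled by neqc of limma 3.58.1 under R 4.3.3 (which infers negative control levels from the detection p-values, with an offset of 16 and quantile normalization of log2 values), and the fold calculation was tested on simulated data. Probes were named through the platform table (27578 with 1 symbol, 13 with several, 21212 unnamed), with symbols updated by Entrez identifier for 27541. A gene was read from its brightest detected probe. Robust spread is the scaled median absolute deviation. No test was run, since each time has 1 array. Members, lists and thresholds were chosen with earlier results of these data known. Named genes were all members, up to 4 genes of each list past 1.5-fold at 6 h against 0 h or 2 h, and the 10 nearest profiles. Alternatives were median scaling, the processed values of the authors, an offset of 50, the mean of detected probes, a detection p under 0.05 and a fold of 2.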

Additional observations from a re-analysis of the deposited data

How the results depend on the processing

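No paired analysis was possible because each time has 1 array. For the same reason no replicate could be left out. A difference was called moved when it changed by more than 0.216, the smallest robust spread of log2 differences between any pair of arrays. Of 16 recomputed CHKA differences 2 moved and of 120 for the other members 4 did, all 6 with the mean of detected probes in place of the brightest. CHKA then stood at -0.040 for 2 h minus 0 h and 1.16 for 6 h minus 0 h, ETNK1 at 0.19 and 0.49, PEMT at -0.26 for 2 h minus 0 h and CHPT1 at -0.025 for 6 h minus 2 h, because the probes of each gene differ. The counts for CHKA and for the other members are not comparable. A detection p under 0.05 was tried for the other members only. It left each of their differences as it was, because their brightest probes stayed the same. PCYT2, with 1 probe detected at a p under 0.01, could not change with the mean of probes. Its dimmer probe, higher than at 0 h at each later time, was read in neither setting. No difference past 1.5-fold changed sign. Of the smaller ones, CHKB and CEPT1 at 6 h against 0 h turned to 0.09 and 0.01 under median scaling, and with the mean of probes CEPT1 at 2 h, CHPT1 and PEMT at 4 h, and PEMT for 6 h minus 2 h turned to between -0.0983 and -0.0025. CHKA at 6 h against 2 h stayed between 1.18 and 1.26 over 4 alternatives.

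Median scaling gave 947 genes higher and 197 lower at 4 h, and 7 and 5 list genes higher at 2 and 4 h in place of 4 and 1. The processed values of the authors gave 93 genes higher and 81 lower for 6 h minus 2 h, and they and an offset of 50 left 0 list genes higher there, where GPAT4 had been, and 5 in place of 7 at 6 h against 0 h, without ETNK2 and CDIPT. The cause was not tested. At a fold of 2, fewer genes pass by construction, with 123 higher and 118 lower at 2 h, 20 and 39 at 4 h, 160 and 175 at 6 h, and 14 and 13 for 6 h minus 2 h. The shape with 4 h less far to the side of 2 and 6 h, examined after seeing the data, held for 62.5% to 67.6% of genes past the fold over 3 alternatives. Signal over background limits PCYT1A, which has no detected probe, and the dimmer PEMT probe.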
